A study of Mus musculus with 8 samples.

Results

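Ranbp3l, Selenbp1, Scel, Arrb1, Zbtb8a and Myadml2 are 6 of the 10639 genes in the deposited table of RNA sequencing values from RAW264.7 cells, a mouse macrophage-like line transformed with Abelson leukaemia virus. They were picked by name as large falls with lipopolysaccharide (LPS), several of them lower still when antibodies against CD36 were added to LPS. The values of the LPS, combination and untreated libraries therefore chose these genes, and differences between those groups are given as a description without a test. Each group had 2 libraries. The groups were cells given LPS together with anti-CD36 antibodies for 12 h (doses not given in the labels), cells given LPS at 50 ng/mL for 12 h, cells given anti-CD36 antibodies at a dilution of 1 in 100 for 12 h, and untreated cells. All were labelled wild type, and no group received an antibody of another specificity. Nothing in the labels says that the 2 libraries of a group came from separate cultures, so a p-value here reflects library-to-library spread that could be purely technical.

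LPS is a cell wall component of Gram-negative bacteria that macrophages sense through TLR4, and CD36 is a scavenger receptor for modified lipoproteins and fatty acids. Macrophages answer LPS with strong induction of cytokine genes, and at the same time many genes of the resting state lose expression. The 6 genes do not belong to a single pathway. Ranbp3l is related to the Ran-binding nuclear export cofactor Ranbp3 and has been described as an exporter of the SMADs that act downstream of BMP receptors. Selenbp1 binds selenium and in humans oxidises methanethiol, a step of sulfur metabolism that yields hydrogen sulfide. Arrb1 encodes beta-arrestin 1, which binds phosphorylated G protein-coupled receptors, ends their signalling and carries them to clathrin-coated pits. Scel encodes sciellin, a protein known from the cornified envelope of keratinocytes. Zbtb8a belongs to the BTB zinc finger family, and Myadml2 encodes a membrane protein of the MARVEL type, related to the myeloid marker Myadm.

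Values are FPKM, fragments per kilobase of transcript scaled to the reads of a library, so levels can be compared between genes per length. The steps of single reads in short RNAs placed the libraries at 47.9 to 71.7 M reads. No gene of the table was at 0 in any library. Of 10 macrophage markers 9 were in the table, with summed FPKM of 4070 to 4610 in the combination, 4370 to 4430 with LPS, 4880 to 5500 with anti-CD36 and 3750 to 4340 in untreated cells; Mertk was the marker not in the table. None of the epithelial (8), fibroblast (5), T cell (5), B cell (4), erythroid (4) and endothelial (4) markers was in it. Since the table holds no gene at 0, a marker without reads in any single library would also be absent. Anti-CD36 replicate 1 stood apart in its mitochondrial genes, which took 15.7% of its FPKM total, against 3.28% to 6.62% elsewhere.

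The genes lie on 6 chromosomes (GRCm38, which is the assembly called mm10). Ranbp3l is on chromosome 15 (8967949 to 9067335, plus strand), Selenbp1 on chromosome 3 (94933056 to 94944758, plus strand) and Scel on chromosome 14 (103513342 to 103612797, plus strand). Arrb1 is on chromosome 7 (99535466 to 99606771, plus strand), Zbtb8a on chromosome 4 (129353628 to 129378116, minus strand) and Myadml2 on chromosome 11 (120646031 to 120648158, minus strand). All are protein-coding in GENCODE M21. Selenbp1 has a near-copy, Selenbp2, on the same chromosome (94693556 to 94704413, plus strand). The longest protein-coding transcripts of this pair differed at 25 of 1712 aligned bases (98.5% identity), and 21.3% of the 100-base windows of Selenbp1 occurred unchanged in a Selenbp2 transcript. Reads of the 2 genes can therefore be confused, and their values are uncertain to that extent. In GENCODE the 3' end of Zbtb8a overlaps the opposite-strand gene Zbtb8os by 920 bp, while RefSeq places a gap of 3760 bp between them. Without a stated use of strand, reads in such an overlap cannot be told apart.

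The sequences before the start of 4 of the genes follow, from RefSeq (GRCm38.p6), 250 bases each and 5' to 3'. The Selenbp pair is shown because the likeness of the copies extends beyond the transcripts, Ranbp3l because it had the largest fall on the log2(FPKM + 1) scale, and Scel because its window held an AP-1 match. Capitals mark a match to a searched motif, on either strand. The windows are chr15:8967699-8967948 (plus strand), chr3:94932833-94933082 (plus strand), chr3:94693323-94693572 (plus strand) and chr14:103513091-103513340 (plus strand).
Ranbp3l: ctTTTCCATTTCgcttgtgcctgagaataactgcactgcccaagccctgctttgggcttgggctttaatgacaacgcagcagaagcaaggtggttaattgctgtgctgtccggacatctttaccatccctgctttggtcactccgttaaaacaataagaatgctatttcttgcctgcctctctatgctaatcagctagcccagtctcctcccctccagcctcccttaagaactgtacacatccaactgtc
Selenbp1: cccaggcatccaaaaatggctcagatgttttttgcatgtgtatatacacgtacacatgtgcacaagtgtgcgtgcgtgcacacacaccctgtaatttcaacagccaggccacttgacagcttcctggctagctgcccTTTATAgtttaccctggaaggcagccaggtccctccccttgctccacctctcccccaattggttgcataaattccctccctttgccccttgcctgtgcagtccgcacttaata
Selenbp2: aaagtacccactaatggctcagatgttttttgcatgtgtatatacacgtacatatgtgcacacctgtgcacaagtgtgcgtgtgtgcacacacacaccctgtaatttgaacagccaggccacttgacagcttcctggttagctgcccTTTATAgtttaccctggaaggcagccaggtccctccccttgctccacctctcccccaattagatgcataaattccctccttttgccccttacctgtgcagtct
Scel: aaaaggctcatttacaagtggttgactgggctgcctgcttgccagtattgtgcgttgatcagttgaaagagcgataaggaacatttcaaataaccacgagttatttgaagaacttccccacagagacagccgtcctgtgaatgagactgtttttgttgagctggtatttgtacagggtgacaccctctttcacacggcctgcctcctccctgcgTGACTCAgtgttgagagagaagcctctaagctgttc

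Aligned end to end, the windows of Selenbp1 and Selenbp2 were identical at 93.7% of 238 aligned bases, with 24 gap positions. RefSeq windows of 250 bases before and 50 after the start were searched on both strands for 6 motifs in Ranbp3l, Selenbp1, Scel, Zbtb8a and Myadml2, and Arrb1 was not in the promoter table. An NF-kB consensus, PU.1 (GAGGAAGT) and E-box (CACGTG) letters were found in 0 of these 5 windows, against 1.63%, 3.2% and 7.15% of 32851 windows. AP-1 letters (TGANTCA) were in Scel (7.81% of all windows), ISRE-like letters in Ranbp3l (3.44%), and TATA box letters (TATAAA) in Selenbp1 and Myadml2 (13.6%) and also in Selenbp2. These motifs did not overlap in the printed windows. Relative to the gene start, the TATA box letters began at -113 in Selenbp1 and -103 in Selenbp2, both as TTTATA on the opposite strand, and at -189 in Myadml2. Whether they act as TATA boxes was not tested. The windows held 5 to 13 CpG dinucleotides, where the median of all windows was 7, and their GC content was 50.0% to 53.7%, where that median was 52.7%.

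Ranbp3l was the third of the 6 in its LPS fold and the first in its combination fold. Its FPKM was 0.824 and 0.594 in the combination, 2.42 and 3.24 with LPS, 54.6 and 56.4 with anti-CD36, and 51.4 and 63.7 in untreated cells. Each LPS library was below each library without LPS, and the combination libraries were below the LPS libraries. The group means with LPS and in the combination were 4.91% and 1.23% of the untreated mean. The mean was 20.3-fold lower with LPS than in untreated cells, and 3.99-fold lower in the combination than with LPS. At these levels the combination libraries still held about 347 and 219 reads of the gene, against about 1023 and 1419 with LPS and 19728 and 31457 in untreated cells.

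Selenbp1 was at an FPKM of 2.02 and 1.16 in the combination, 4.34 and 5.37 with LPS, 39.0 and 65.1 with anti-CD36, and 71.4 and 61.4 in untreated cells. The combination libraries were lowest, the LPS libraries next, and the anti-CD36 and untreated libraries overlapped. The mean with LPS was 13.7-fold lower than in untreated cells, and the combination mean was 3.05-fold lower than the LPS mean. Selenbp2, which was not picked, was at 0.115 and 0.0658 in the combination, 0.301 and 0.333 with LPS, 2.72 and 3.28 with anti-CD36, and 4.79 and 4.26 in untreated cells. It followed the same order as Selenbp1, at 5.04% to 6.98% of the FPKM of Selenbp1 in all 8 libraries. Selenbp2 fell with LPS (log2 difference -2.07 ± 0.11, SE, on the log2(FPKM + 1) scale, limma adjusted p = 1.08e-05), but its reads may in part be those of Selenbp1, so this is no separate evidence.

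Scel was at an FPKM of 0.516 and 0.418 in the combination, 0.813 and 0.779 with LPS, 21.8 and 12.1 with anti-CD36, and 15.6 and 20.6 in untreated cells. The libraries given LPS, alone or with the antibodies, held 56 to 125 reads of it, and those without LPS 1738 to 3702. The mean with LPS was 22.8-fold lower than in untreated cells. The combination mean was 1.7-fold lower than the LPS mean. These groups did not overlap, but on the log2(FPKM + 1) scale they differed by only -0.29 ± 0.25 (SE). No other gene of the cornified envelope moved beside it in a way that could be followed, since of 21 listed cornified envelope and desmosome genes 1 was in the table. That gene was Pkp2, a desmosomal plakophilin, at 7.51 ± 0.0455 with LPS and 18.0 ± 0.542 in untreated cells (SD, n = 2 each; log2 difference -1.16 ± 0.10, limma adjusted p = 8.47e-05).

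Arrb1 had the smallest LPS fold of the 6 genes. Its FPKM was 2.82 and 2.6 in the combination, 6.44 and 7.79 with LPS, 18.6 and 18.6 with anti-CD36, and 34.5 and 33.8 in untreated cells. The 4 groups were fully separate, in that order from low to high. With 2 libraries a group, relatives that were not called separated as well, and the share over all genes was not counted. The LPS mean was 4.8-fold lower than the untreated mean, and the combination mean was 2.63-fold lower than the LPS mean. In the combination Arrb1 was at 7.92% of its untreated mean, and with LPS alone at 20.8%.

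Zbtb8a and Myadml2 had low levels in untreated cells and a different order under LPS. Zbtb8a was at an FPKM of 0.902 and 0.87 in the combination, 0.231 and 0.38 with LPS, 2.91 and 2.74 with anti-CD36, and 2.73 and 2.99 in untreated cells. Both combination libraries stood above both LPS libraries, and the combination mean was 2.9-fold the LPS mean. The LPS mean was 9.37-fold lower than the untreated mean, from 33 and 56 reads with LPS and 353 and 498 in untreated cells. Myadml2 was at 0.138 and 0.176 in the combination, 0.0306 and 0.0739 with LPS, 1.35 and 1.99 with anti-CD36, and 1.49 and 1.63 in untreated cells. Its LPS values rested on 4 and 10 reads, close to the FPKM of 0.023 and 0.0222 that 3 reads give in those libraries, so the 29.8-fold lower mean with LPS is imprecise. The combination held 18 and 20 reads of it and a mean 3-fold that of LPS. The counted length of Myadml2 was 2128 bp, the whole span of the gene, where its annotated exons cover 992 bp.

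**Figure D1:**
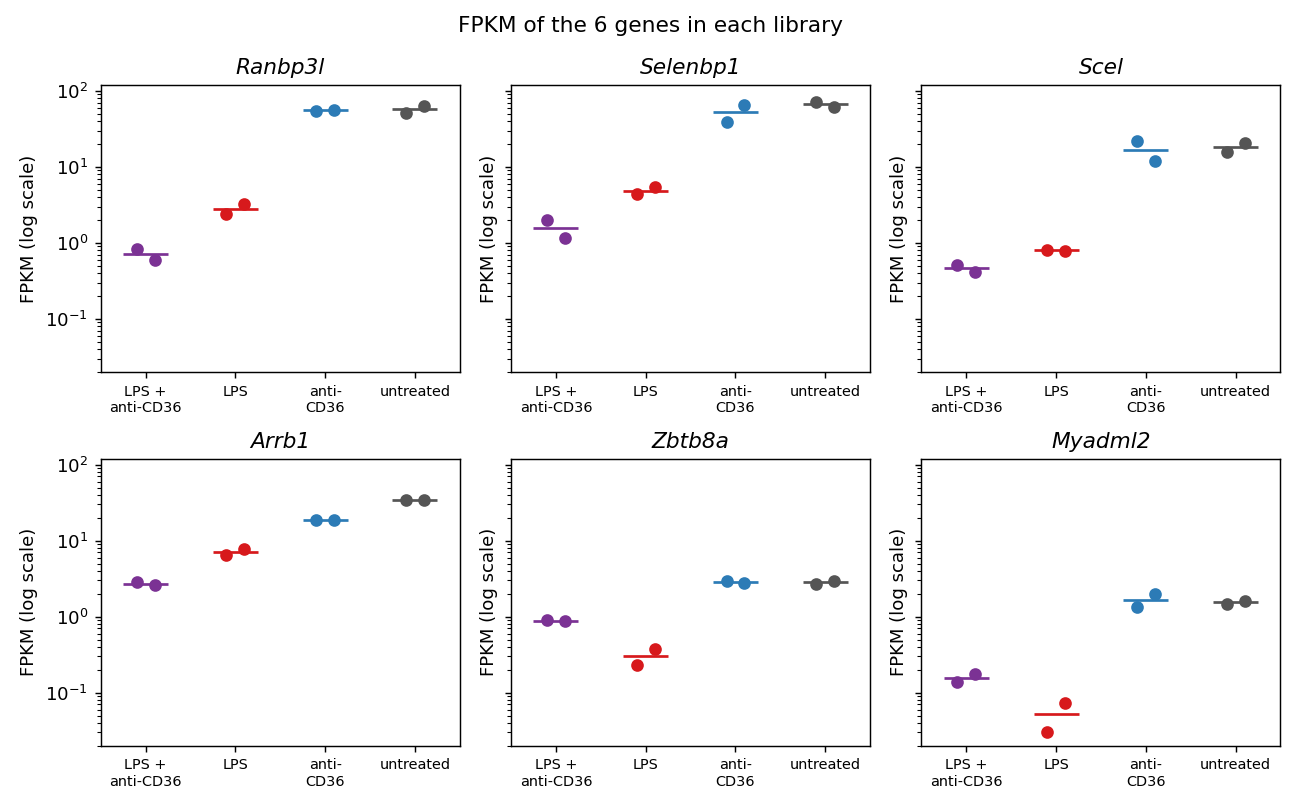
FPKM of the 6 genes on a shared log scale, with each point a library and each bar the mean of 2, for LPS plus anti-CD36, LPS, anti-CD36 and untreated cells. Libraries given LPS lie below those without it in every panel, and the combination lies below LPS for Ranbp3l, Selenbp1, Scel and Arrb1 and above it for Zbtb8a and Myadml2.

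The name under which these genes were picked, genes that LPS silences most strongly, was compared with the table. The table holds no gene at 0 in any library, so a gene with no reads in an LPS library could not be ranked or counted here. On the log2(FPKM + 1) scale Ranbp3l (-3.94 ± 0.15, SE), Selenbp1 (-3.53 ± 0.26) and Scel (-3.40 ± 0.25) held the lowest ranks of 10289 genes tested, and Alox5 (-3.13), which was not picked, came next. Arrb1 (-2.12 ± 0.11) ranked 51, Zbtb8a (-1.57 ± 0.10) ranked 250 and Myadml2 (-1.28 ± 0.12) ranked 555. Low genes change less on that scale than in FPKM. By the ratio of mean FPKM the ranks were 5 for Myadml2, 9 for Scel, 12 for Ranbp3l, 23 for Selenbp1, 45 for Zbtb8a and 179 for Arrb1. The 6 genes are therefore large falls but not the 6 largest, and 471 tested genes had a mean FPKM of at least 1 in untreated cells and under 1 with LPS. No rule with a threshold separated them from the genes not picked. All 6 had groups that did not overlap between LPS and untreated cells, and so did their relatives Arrb2 and Myadm, which were not called. The combination and LPS groups likewise did not overlap for Arrb2 and Ranbp3, which were not called there (limma adjusted p = 0.719 and 0.334). The share of all genes without overlap was not counted in any comparison. By the different measure of calls, 37.5% of all genes tested were called lower with LPS than in untreated cells (54.6% in either direction). Nothing is read from these values since the comparison chose the genes. Of the called genes 31.2% were higher, and 49.4% with median-ratio size factors, which moved the median of all genes to 0.01, against -0.19 as deposited. In bulk RNA, fewer cells expressing a gene and less of its RNA per cell cannot be told apart.

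The LPS effect can be set out in 2 ways that share no library, LPS against untreated cells and the combination against anti-CD36 alone. The combination libraries had a part in choosing the genes, so these values are a description. With the antibodies present the mean FPKM under LPS was lower by 78.3-fold for Ranbp3l, 36.3-fold for Scel, 32.7-fold for Selenbp1 and 6.87-fold for Arrb1. Without them the same genes were lower by 20.3-fold, 22.8-fold, 13.7-fold and 4.8-fold. For Zbtb8a the fall was 3.19-fold with the antibodies and 9.37-fold without them, and for Myadml2 it was 10.6-fold with them and 29.8-fold without them. By these ratios the larger fall was on the antibody side in 4 genes and on the side without antibody in Zbtb8a and Myadml2, where the Myadml2 ratio without antibody rests on 4 and 10 reads. On the log2(FPKM + 1) scale the sides were close for Scel (-3.56 with and -3.40 without the antibodies, SE 0.25 each) and Myadml2 (-1.20 and -1.28, SE 0.12 each). Without anti-CD36 replicate 1 that order turned in both, to -3.16 and -3.40 for Scel and -1.37 and -1.28 for Myadml2. It also turned for Scel without untreated replicate 1 (-3.56 and -3.59), and with a pseudocount of 5 for Scel (-1.97 and -1.99) and Arrb1 (-1.61 and -1.69). On the log2(FPKM + 1) scale the combination differed from LPS by -1.19 ± 0.26 for Selenbp1, -1.16 ± 0.15 for Ranbp3l, -1.13 ± 0.11 for Arrb1, -0.29 ± 0.25 for Scel, 0.53 ± 0.10 for Zbtb8a and 0.14 ± 0.12 for Myadml2 (SE). Over all genes tested, 1.42% were called lower and 0.36% higher (1.78% in all) in the combination than with LPS, and 31.7% were called lower and 15.4% higher (47.1% in all) in the combination than with anti-CD36.

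**Figure D2:**
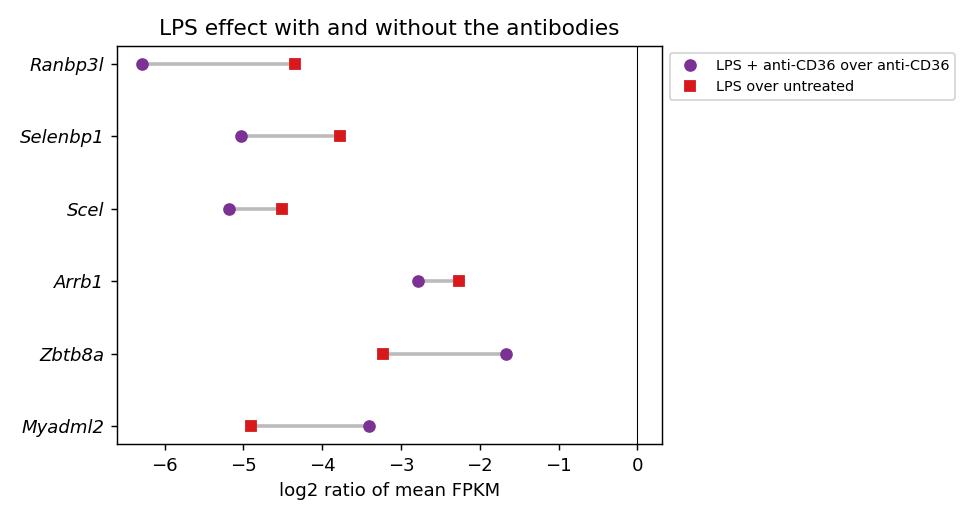
Log2 ratio of mean FPKM for LPS plus anti-CD36 over anti-CD36 (circles) and for LPS over untreated cells (squares), each from 2 libraries a group, with a grey line joining the 2 values of a gene. The circle lies further from 0 for Ranbp3l, Selenbp1, Scel and Arrb1, and the square for Zbtb8a and Myadml2.

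The anti-CD36 libraries had no part in choosing the genes, and the antibody effect without LPS was tested, although the untreated libraries on the other side of it were used. Of the 6 genes 1, Arrb1, was called lower with anti-CD36, where 10.6% of all genes tested were called lower and 3.04% higher (13.7% in all). Of those calls 22.3% were higher, and 41.6% with size factors. Arrb1 averaged 18.6 ± 0.0418 FPKM with anti-CD36 and 34.2 ± 0.447 in untreated cells (SD, n = 2 each), and both anti-CD36 libraries were below both untreated ones. The log2 difference was -0.84 ± 0.11 (SE, 95% interval -1.11 to -0.58, limma adjusted p = 0.0138). That call used the spread of all 8 libraries. It was lost in a fit on the 4 libraries of these groups alone (limma adjusted p = 0.162, log2 difference -0.84), without untreated replicate 1 (0.0797) and without untreated replicate 2 (0.107). With mitochondrial genes left out the difference was -0.76 (limma adjusted p = 0.0271), and with size factors it was -0.74 (0.0208).

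Differences between anti-CD36 and untreated cells moved with gene length, and Arrb1 is a long gene, with 11175 bp of exon. Among the 924 tested genes with over 10000 bp of annotated exon, the median log2 difference was -0.32, 27.6% were called lower, and 5.41% were at or below Arrb1. Among 2244 genes of up to 2500 bp the median was 0.12 and 1.56% were called lower. The part of length in the value of Arrb1 was not tested. Ranbp3l, with 6855 bp of annotated exon, was at -0.04 where the median of the 3260 genes of 5000 to 10000 bp was -0.21.

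The other 5 genes were not called with anti-CD36, and the groups overlapped in each. Ranbp3l differed by -0.04 (95% interval -0.40 to 0.32, limma adjusted p = 0.876), Zbtb8a by -0.01 (-0.24 to 0.22, 0.945) and Myadml2 by 0.05 (-0.23 to 0.34, 0.806). Scel differed by -0.13 (-0.71 to 0.45, 0.761) and Selenbp1 by -0.39 (-0.99 to 0.22, 0.354). In the last 2 genes the anti-CD36 replicates lay 1.8-fold and 1.67-fold apart, and each replicate decided the value. Selenbp1 was at -0.75 without anti-CD36 replicate 2 (limma adjusted p = 0.0267) and -0.02 without replicate 1, while Scel was at -0.53 without replicate 1 (limma adjusted p = 0.0306) and 0.27 without replicate 2. Selenbp2 was called lower with anti-CD36, although its reads may in part be those of Selenbp1. Selenbp2 was at 3.0 ± 0.398 against 4.52 ± 0.371 FPKM in untreated cells (SD, n = 2 each), a log2 difference of -0.47 ± 0.11 (limma adjusted p = 0.0325). That call was lost without any 1 of the untreated, LPS or combination libraries (limma adjusted p = 0.0686 to 0.162) and with size factors (0.051).

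**Figure D3:**
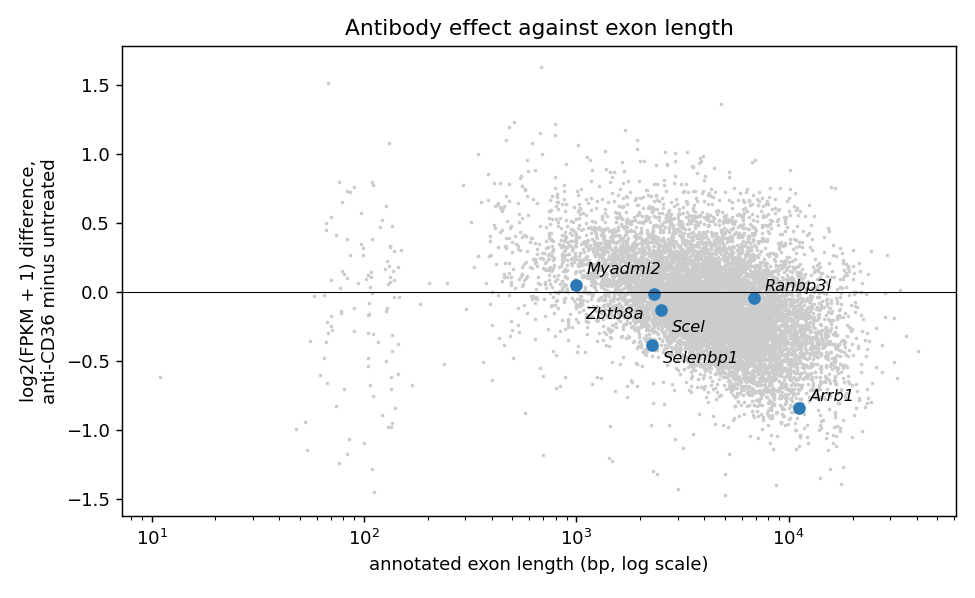
Difference in log2(FPKM + 1) between anti-CD36 and untreated cells against annotated exon length in bp on a log scale, with each grey point a gene tested and the 6 genes in blue. Arrb1 lies lowest of the 6 at -0.84 and is the longest, and the cloud of all genes slopes downward with length.

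The closest relatives of the picked genes were not all called. Beta-arrestin 2 (Arrb2) was at 47.4 ± 1.08 FPKM with LPS and 54.1 ± 2.81 in untreated cells (SD, n = 2 each), a log2 difference of -0.19 ± 0.19 that was not called (limma adjusted p = 0.415) and turned to 0.05 with size factors. Arrb1 made up 5.02% and 4.76% of the summed FPKM of both beta-arrestins in the combination, 12.1% and 13.9% with LPS, 19.8% and 27.3% with anti-CD36, and 39.8% and 37.6% in untreated cells. Arrb2 thus had the higher FPKM of the beta-arrestins in every library, by the widest margin in the combination. These shares depend on the lengths behind the FPKM, which were 11175 bp for Arrb1 and 2845 bp for Arrb2, where their longest protein-coding transcripts have 7135 and 1848 bases. Ranbp3 fell with LPS, to 9.85 ± 0.705 FPKM against 18.0 ± 0.555 in untreated cells (log2 difference -0.81 ± 0.14, limma adjusted p = 0.00203). Ranbp3l was 5.94% and 5.03% of the summed FPKM of the pair in the combination and 20.5% and 23.8% with LPS, against 78.4% and 74.9% with anti-CD36 and 73.6% and 78.3% in untreated cells. The more abundant gene of this pair was Ranbp3 in all libraries given LPS and Ranbp3l in all libraries without it. Myadm, the closest named relative of Myadml2, was at 46.5 ± 3.0 FPKM with LPS and 40.7 ± 1.83 in untreated cells, a log2 difference of 0.19 without a call (limma adjusted p = 0.489). Zbtb8os, which overlaps Zbtb8a, was at 4.33 ± 0.0196 FPKM with LPS and 7.07 ± 0.434 in untreated cells (log2 difference -0.60 ± 0.13, limma adjusted p = 0.00626). Zbtb8b was not in the table.

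**Figure D4:**
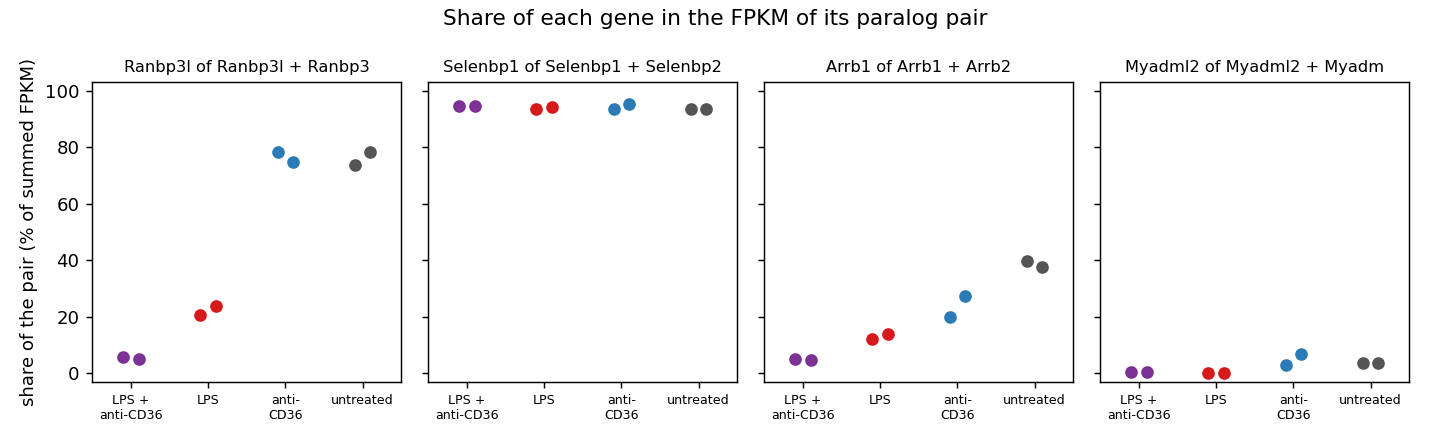
Share of each gene in the summed FPKM of itself and a relative, in percent, with each point a library and the groups ordered LPS plus anti-CD36, LPS, anti-CD36, untreated. The share of Ranbp3l and Arrb1 is lowest in the combination, at 5.94% and 5.02% or less, while that of Selenbp1 stays between 93.5% and 95.2% in all 8 libraries.

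Wider lists of relatives and partners were chosen for the known roles of the 6 genes, with earlier results of these data known. The genes named from each list are those with its largest LPS differences, so their sizes and p-values are selected. The lists were counted beside the background of 37.5% of genes called lower and 17% called higher with LPS. With size factors that background was 2718 genes called lower and 2656 higher, against 3860 and 1754 as deposited. Of 17 tested arrestins, receptor kinases and clathrin adaptors (20 listed), 9 were called lower and 0 higher (median log2 difference -0.39, median of all genes -0.19), and with size factors 6 were lower and 1 higher. Grk6, a kinase that phosphorylates receptors for arrestin binding, was at 14.4 ± 0.94 FPKM with LPS and 26.8 ± 2.16 in untreated cells (log2 difference -0.85, limma adjusted p = 0.00275). The arrestin-related Arrdc4 (-0.83) and Arrdc2 (-0.77) and the AP-2 subunit gene Ap2a1 (-0.75) were also called lower. Of these 17 genes 2 were called lower with anti-CD36, a share near the 10.6% of all genes, Ap2a1 among them (-0.55, limma adjusted p = 0.036), and with size factors 0 were, Ap2a1 then being at -0.45 (0.0935). Over all genes, 593 were called lower in that comparison with size factors, against 1092 as deposited.

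Selenium, selenoprotein and sulfide genes went both ways with LPS, with 7 called higher and 13 lower of 29 tested (33 listed, median -0.18), Selenbp2 being 1 of the 13; with size factors 7 were higher and 10 lower. Cth, which makes cysteine and can make hydrogen sulfide, was at 16.3 ± 0.525 FPKM with LPS and 1.2 ± 0.225 in untreated cells (log2 difference 2.98, limma adjusted p = 1.05e-05). Sqor, the mitochondrial enzyme that oxidises sulfide, was at 12.8 ± 0.622 with LPS and 2.38 ± 0.248 in untreated cells (2.03, limma adjusted p = 2.27e-05). Sqor was higher again in the combination, at 21.2 ± 1.86 FPKM against 12.8 ± 0.622 with LPS (0.68, limma adjusted p = 0.0494), and was the gene of this list called in that comparison. Without any 1 of the LPS or combination libraries that call was lost (limma adjusted p = 0.213 to 0.347). The selenoprotein gene Selenow rose with LPS by 1.24 (limma adjusted p = 0.000404). The genes of this list with the largest differences were thus Cth and Sqor, which rose, and Selenbp2, which fell. The reads of Selenbp2 may in part be those of the picked gene Selenbp1, so its fall is no separate evidence.

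Of 22 tested genes of Ran transport and BMP-SMAD signalling (26 listed), 2 were called higher and 5 lower with LPS (median -0.13), and of the 21 tested with size factors 4 were higher and 4 lower (median 0.09). The 2 were Id1 and Id3, encoding inhibitors of basic helix-loop-helix factors and known targets of BMP-activated SMADs. Id1 was at 32.0 ± 11.5 FPKM with LPS and 2.51 ± 0.869 in untreated cells (log2 difference 3.21 ± 0.27, limma adjusted p = 8.67e-05), and Id3 at 16.9 ± 1.65 with LPS and 5.07 ± 1.05 in untreated cells (1.57 ± 0.36, limma adjusted p = 0.00758). Rangap1, which encodes the protein that stimulates GTP hydrolysis by Ran, fell by 0.89 on the log2 scale (limma adjusted p = 0.000962). With anti-CD36 alone Id1 was at 5.79 ± 1.45 FPKM against 2.51 ± 0.869 in untreated cells, which was not called (limma adjusted p = 0.0577).

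Of 36 tested genes in the list of BTB zinc finger genes (45 listed), 7 were called higher and 14 lower with LPS (median -0.27), and with size factors 12 were higher and 13 lower. The list includes Zbtb8os, which is named for its place opposite Zbtb8a and not as a BTB zinc finger gene. It overlaps Zbtb8a and is among the 14 called lower. Bcl6b, a relative of the repressor Bcl6, rose to 7.88 ± 0.813 FPKM with LPS, against 1.68 ± 0.148 in untreated cells (log2 difference 1.72, limma adjusted p = 6.48e-05). Zbtb45 (-1.52), Zbtb14 (-1.16) and Zbtb42 (-1.15) fell, with limma adjusted p-values of 0.000462, 0.000241 and 0.000132. Of 10 tested MARVEL domain genes (28 listed), 4 were called lower and 0 higher (median -0.28), and with size factors 2 were lower. Marveld1 had the largest difference, at 4.58 ± 0.738 FPKM with LPS and 15.2 ± 0.839 in untreated cells (-1.54, limma adjusted p = 5.86e-05), followed by Cmtm7 (-0.94) and Plp2 (-0.80), whose call was lost with size factors (-0.57, limma adjusted p = 0.133). Syngr1 was at -0.74, which was not called (limma adjusted p = 0.0537).

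Genes next to the 6 on their chromosomes were counted as well, 2 protein-coding genes on each side in RefSeq by start position. Of 24 neighbours 15 were tested, and with LPS 7 of them (46.7%) were called lower and 0 higher, near the 37.5% of all genes. Their differences ran from -0.99 for Pogz beside Selenbp1 to 0.98 for Rps3 beside Arrb1, a ribosomal protein gene that was not called (limma adjusted p = 0.0929). The 6 genes were picked as large falls in this comparison, so their sizes are not set against those of the neighbours. Nadk2, 3924 bp from Ranbp3l, was at 11.3 FPKM with LPS and 12.8 in untreated cells (-0.16, limma adjusted p = 0.262). Rfx5, 5930 bp from Selenbp1, was at 4.2 with LPS and 6.94 in untreated cells (-0.61, limma adjusted p = 0.0042).

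The 6 genes correlated with each other across the 8 libraries at a Pearson's r of 0.79 (Arrb1 and Zbtb8a) to 0.992 (Ranbp3l and Selenbp1) in log2(FPKM + 1). These r values are descriptions over 8 points that share the same libraries and a lower level in the libraries given LPS, for which the genes were picked. By the same measure the genes most like Arrb1 were Epm2a, encoding the glycogen phosphatase laforin (0.9989), Ankzf1 (0.9971) and Gabpb2, a subunit of the factor GABP (0.9958). Epm2a was at a mean FPKM of 0.55 in the combination, 1.74 with LPS, 5.03 with anti-CD36 and 8.51 in untreated cells, the same order as Arrb1. Those most like Ranbp3l were Pgghg (0.9983), Ndrg2 (0.9982) and the oxygen-sensing prolyl hydroxylase gene Egln1 (0.9975). Egln1 was at 4.63 in the combination, 8.08 with LPS, 32.7 with anti-CD36 and 35.6 in untreated cells. Those most like Selenbp1 were Tifab (0.9981), the pyruvate kinase gene Pkm (0.9979) and Gas2 (0.9967). Those most like Scel were Srrt (0.9985), the kinase gene Pak1 (0.9984) and the protease gene Lgmn (0.9982). For Zbtb8a they included Pcbp1 (0.9945) and the kinase gene Csk (0.9937), which like Zbtb8a had a higher mean FPKM in the combination than with LPS, Csk at 25.4 and 18.1. For Myadml2 they were Enkd1 (0.9978), Ambp (0.9967) and Pts (0.9964). All had a smaller fold difference with LPS than Myadml2, which was picked as a large fall and held 4 and 10 reads with LPS.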

How the data were processed

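The 6 genes and the lists of relatives were chosen with earlier results of these data known. RNA was isolated with Trizol for Illumina libraries, per the labels' protocols; the labels also name 10x Genomics, but with no cell-level values the libraries were treated as bulk. The authors deposited FPKM values, per the file headers. HISAT2 2.0.5, mm10 and hg38 appear in the submitters' processing notes. The counter, annotation, strand use and role of hg38 are not given in the sources used here.

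Library reads were recovered from the FPKM of 115 to 122 short RNAs per library, of which 114 to 121 came out as whole reads within 0.02. Reads per gene are approximate and use the shortest length at which all 8 libraries came out whole. The 3-read level covers counting error only.

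FPKM are not counts, so limma 3.58.1 (R 4.3.3) was fitted to log2(FPKM + 1) of 10289 genes that reached 1 FPKM in 2 libraries or more, with 4 group means, a shared spread and a mean-expression trend. All 6 genes passed that filter, Scel, Zbtb8a and Myadml2 only through the groups without LPS. Calls needed a Benjamini-Hochberg adjusted p below 0.05. The fit was tested on simulated data. From each list the 4 genes with the largest LPS difference are named, and for each of the 6 genes the 3 tested genes with the highest Pearson's r, of which 1 is not reported here. Alternatives were other pseudocounts, no filter, median-ratio size factors, no mitochondrial genes, fewer groups, a replicate block and leaving out each library. Promoters and neighbours come from RefSeq (GRCm38.p6), gene positions from GENCODE M21, and alignments used Biopython 1.88.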

Additional observations from a re-analysis of the deposited data

How the results depend on the processing

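With 2 libraries a group, the spread rests on all 8 libraries, and counts of calls moved with which of them were fitted. Leaving out 1 library at a time, 3583 to 7080 genes were called for LPS against untreated cells (5614 with all), 0 to 3726 for anti-CD36 against untreated cells (1405), 1 to 1450 for the combination against LPS (183) and 3214 to 6374 for the combination against anti-CD36 (4844). Fitting only the groups compared, limma called 0 genes for anti-CD36 against untreated cells (2017 at an unadjusted p under 0.05), 2384 for the combination against LPS and 3212 for the combination against anti-CD36. Requiring also an absolute log2 difference of at least 1 left 1712, 61, 37 and 1391 genes in the order above, and leaving out mitochondrial genes gave 838 for anti-CD36 against untreated cells, of which 39.7% were higher. In the combination against anti-CD36, 32.6% of calls were higher, and 50.4% with size factors.

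For anti-CD36 against untreated cells, Arrb1 stayed at -0.86 to -0.83 with any 1 library left out and at -0.84 in the fit of those groups alone, where it was not called. Selenbp1 was at -0.75 to -0.02 and Scel at -0.53 to 0.27. In the other 3 comparisons the 6 genes kept their direction in every alternative run for them. The fit of the combination and LPS groups alone left out Scel, Zbtb8a and Myadml2, which did not reach 1 FPKM in those groups. The log2 size moved with the pseudocount (0.1, then 5), which the ratios of mean FPKM do not use. For LPS against untreated cells it was -3.46 and -0.38 for Myadml2, -2.89 and -0.57 for Zbtb8a and -4.33 and -1.99 for Scel. For the combination against LPS it was -1.86 and -0.45 for Ranbp3l, -1.59 and -0.58 for Selenbp1, -1.36 and -0.65 for Arrb1, -0.67 and -0.08 for Scel, 1.31 and 0.15 for Zbtb8a and 0.77 and 0.03 for Myadml2. For the combination against anti-CD36 it was -2.77 and -0.37 for Myadml2, -1.57 and -0.41 for Zbtb8a and -4.86 and -1.97 for Scel.

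The labels do not say whether the replicate numbers pair the libraries. The correlation of same-numbered deviations ran between -0.65 (untreated and anti-CD36) and 0.53 (untreated and combination), which does not settle it. With the number as a replicate block, 863 genes were called for anti-CD36 against untreated cells and 46 for the combination against LPS, and Arrb1 kept its call (limma adjusted p = 0.0352). The block ended the calls of Selenbp2 (0.056) and Ap2a1 (0.0519) for anti-CD36 against untreated cells and of Sqor for the combination against LPS (0.0886). The cause of these changes was not tested.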
